A study of Homo sapiens with 12 samples.

Results

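The BH3-only proteins, together with BAX and BAK1, start apoptosis from the mitochondrion, and the expression of their genes was examined in H929, a human myeloma cell line, after exposure to an inhibitor of histone deacetylases, an inhibitor of aminopeptidases or both. The set holds 10 genes, taken as BCL2L11 (BIM), PMAIP1 (NOXA), BBC3 (PUMA), BID, BAD, BIK, BMF, HRK, BAX and BAK1. The platform annotation of the Affymetrix U133 Plus 2.0 array assigns 26 of the 54675 probe sets to them, counting for BBC3 a probe set shared with 2 microRNA genes. All 26 passed the filter on low values and were tested. A probe set is a group of probes designed against 1 transcript or a group of them, and its value is a log2 expression value.

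There were 4 groups of 3 arrays: H929 cells given tosedostat at 1 µM together with CHR-3996 at 250 nM (the combination), cells given CHR-3996 at 250 nM, cells given tosedostat (also called CHR-2797) at 1 µM, and untreated cells. Each exposure lasted 24 hours, and all groups were the same cell line grown in the same medium. CHR-3996 inhibits histone deacetylases, enzymes that take acetyl groups off histones and other proteins. Tosedostat inhibits aminopeptidases, which free amino acids from the short peptides left by the proteasome. The controls are labelled untreated, and no source used here says if they received the solvent. The samples are labelled as biological replicates of a single line with no more said about separate cultures, so a p-value covers the spread among the arrays and no more.

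Arrays within a group had pairwise correlations between 0.978 and 0.983 (36395 tested probe sets), no pair of arrays held the same values, and the number of arrays limits the precision. All 8 plasma cell and myeloma markers that were listed (SDC1, TNFRSF17, IRF4, PRDM1, XBP1, CD38, NSD2 and FGFR3) lay above the 40th percentile on 12 of 12 arrays. CD3D, CD14 and COL1A2 did so on 0 arrays, whereas CD3E, PAX5, COL1A1 and KRT18, of other cell types, did so on 12, MS4A1 on 11, LYZ on 4 and EPCAM on 2. With CHR-3996, 4 of the 8 plasma cell and myeloma markers were called lower, among them SDC1 (-1.82 ± 0.16) and TNFRSF17 (-1.74 ± 0.28). In that comparison 49.7% of 15588 genes were called in either direction, and 15.7% of all probe sets tested were called lower. LYZ was called higher, but it lay above the 40th percentile on 4 of 12 arrays only. Its call adds no support, and its change is not given. The median log2 value of an array was 5.29 ± 0.02 for the combination, 5.26 ± 0.03 for CHR-3996, 5.05 ± 0.01 for tosedostat and 5.04 ± 0.04 for untreated cells (SD, n = 3 each). The actin control probe sets read higher at the 3′ than at the 5′ end by 1.24 ± 0.15 for the combination, 1.59 ± 0.17 for CHR-3996, 2.09 ± 0.11 for tosedostat and 2.14 ± 0.17 for untreated cells (log2, SD, n = 3 each). For GAPDH the same difference was 0.355 ± 0.0918 for the combination, 0.452 ± 0.0603 for CHR-3996, 0.434 ± 0.0782 for tosedostat and 0.437 ± 0.0555 for untreated cells. The array median and the actin difference move with CHR-3996. Values with the arrays set to equal medians are given below where they change the call of a member probe set, and the part of the actin difference was not tested.

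BH3-only proteins share a short helix, the BH3 domain, that fits into a groove on the BCL2 family. Their survival relatives, BCL2, BCL-XL, BCL-W, MCL1 and BFL1, hold BAX and BAK in check, and BH3-only proteins occupy their grooves. Once released or directly activated, BAX and BAK form pores in the outer mitochondrial membrane, and cytochrome c escapes to build the apoptosome. Plasma cells and many myelomas depend on MCL1, the survival protein that NOXA and BIM both bind. Cells control BH3-only proteins at several levels: forkhead factors act on BCL2L11, p53 on PMAIP1 and BBC3, and proteases, kinases and ubiquitin ligases on the proteins themselves.

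Promoter sequences are shown for BCL2L11, PMAIP1 and BMF, 3 members that rose under CHR-3996 on at least 1 probe set in every fit tried. RefSeq (GRCh38.p14) gives a 300-base window, 250 bases before to 50 bases after a start site, for 9 of the 10 members (BIK is the other). The BBC3 window does not lie at the annotated start of the gene and is counted below without being shown. The BCL2L11 window is chr2:111120664-111120963 on the plus strand, that of PMAIP1 chr18:59899746-59900045 on the plus strand, and that of BMF chr15:40108830-40109129 on the minus strand. Capitals mark matches, on either strand, to a forkhead motif (GTAAACA), the core of the cAMP response element (TGACGT) or a GC box (GGGCGG).
BCL2L11: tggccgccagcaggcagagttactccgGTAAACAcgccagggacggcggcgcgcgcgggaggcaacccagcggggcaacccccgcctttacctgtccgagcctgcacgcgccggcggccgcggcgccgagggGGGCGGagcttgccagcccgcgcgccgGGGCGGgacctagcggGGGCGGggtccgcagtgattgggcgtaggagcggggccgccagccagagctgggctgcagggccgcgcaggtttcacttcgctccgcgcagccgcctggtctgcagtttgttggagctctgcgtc
PMAIP1: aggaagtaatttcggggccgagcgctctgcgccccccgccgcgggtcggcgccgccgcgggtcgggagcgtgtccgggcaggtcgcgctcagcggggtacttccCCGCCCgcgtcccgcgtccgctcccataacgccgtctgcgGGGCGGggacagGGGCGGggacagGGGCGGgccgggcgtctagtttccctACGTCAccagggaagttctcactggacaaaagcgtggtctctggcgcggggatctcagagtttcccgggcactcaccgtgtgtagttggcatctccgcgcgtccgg
BMF: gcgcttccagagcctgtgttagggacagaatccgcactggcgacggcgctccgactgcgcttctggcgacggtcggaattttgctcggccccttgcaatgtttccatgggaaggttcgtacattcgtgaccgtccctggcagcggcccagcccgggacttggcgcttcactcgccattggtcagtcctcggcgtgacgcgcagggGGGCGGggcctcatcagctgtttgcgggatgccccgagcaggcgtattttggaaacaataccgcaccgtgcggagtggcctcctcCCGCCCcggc
The BCL2L11 window held a forkhead match beginning 223 bases before the start, a motif present in 3.42% of the 35116 promoter windows of RefSeq and in 1 of the 9 of these genes. PMAIP1 held a cAMP response element core 56 bases before the start, on the opposite strand, and that motif occurs in 7.98% of all windows and in 2 of the 9. GC boxes were found in all 3 sequences shown (3 in BCL2L11, 4 in PMAIP1 and 2 in BMF) and in 7 of the 9 windows, against 45% of all. The E-box CACGTG occurred in 2 of the 9, BAX and BBC3 (7.26% of all windows), and the CHOP-ATF4 composite TTGCATCA in 0 of the 9 (0.866% of all). No 2 matches overlapped in the sequences shown, although the cAMP response element core and the E-box share the letters ACGT, and a match is a description of the letters only.

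The arrays read RNA pooled from whole cultures, so a change in every cell and a change in the share of cells of 1 state cannot be told apart. Against untreated cells, CHR-3996 moved members in both directions. By their brightest probe sets, BCL2L11, BBC3, PMAIP1, BMF and BIK were called higher and BID, BAK1 and BAD lower. Over 15588 genes, 49.7% were called in either direction. On these probe sets the calls of BCL2L11, BIK, BAK1 and BAD were lost in some alternatives, given below by gene. HRK was called lower on 206864_s_at, which is not its brightest probe set. By probe set, 11 of 26 were higher and 6 lower at an adjusted p under 0.05 in limma (65.4%), beside 45.1% of all probe sets tested (29.4% higher and 15.7% lower). The split rests on the scaling of the arrays, with 8 higher and 8 lower when arrays were set to equal medians and 9 and 9 after quantile normalization, since the median change of all probe sets was 0.11 as deposited, -0.11 with equal medians and -0.10 after quantile normalization. The median over the 26 member probe sets was 0.11 as well. Of the 17 calls, 12 (8 higher, 4 lower) held under every other scaling, filter and model in which they were tested and without any single array. Among them, and among the 11 higher, is 208536_s_at of BCL2L11. That probe set passed the filter on low values only through the 2 groups given CHR-3996, so its call adds no support. Here a call said to hold in every fit is one that held under these scalings, filters and models and without any single array. A rule that also required a 2-fold change and a linear difference of 100 is not counted among these fits.

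With the combination, 12 member probe sets were higher and 6 lower than in untreated cells, beside 46.1% of all probe sets called (32% higher and 14.1% lower). The 12 include 208536_s_at of BCL2L11, whose call adds no support because of how it passed the filter. Equal medians gave 8 higher and 9 lower, and quantile normalization 9 and 10. The members had a median of 0.15, and all probe sets 0.14 (-0.10 with equal medians, -0.12 after quantile normalization). Tosedostat gave a different count: 5 of 26 member probe sets were higher and 0 lower, beside 3.68% of all probe sets (3.23% higher and 0.451% lower), with 8 member probe sets under an unadjusted p of 0.05, as were 16.2% of all probe sets. Those 5 were both probe sets of PMAIP1, 2 of BCL2L11 and that of BBC3. The 8 also include BCL2L11 208536_s_at, which adds no support because it lay below the 40th percentile on all tosedostat and untreated arrays. The comparisons with untreated cells share the same 3 control arrays.

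**Figure D1:**
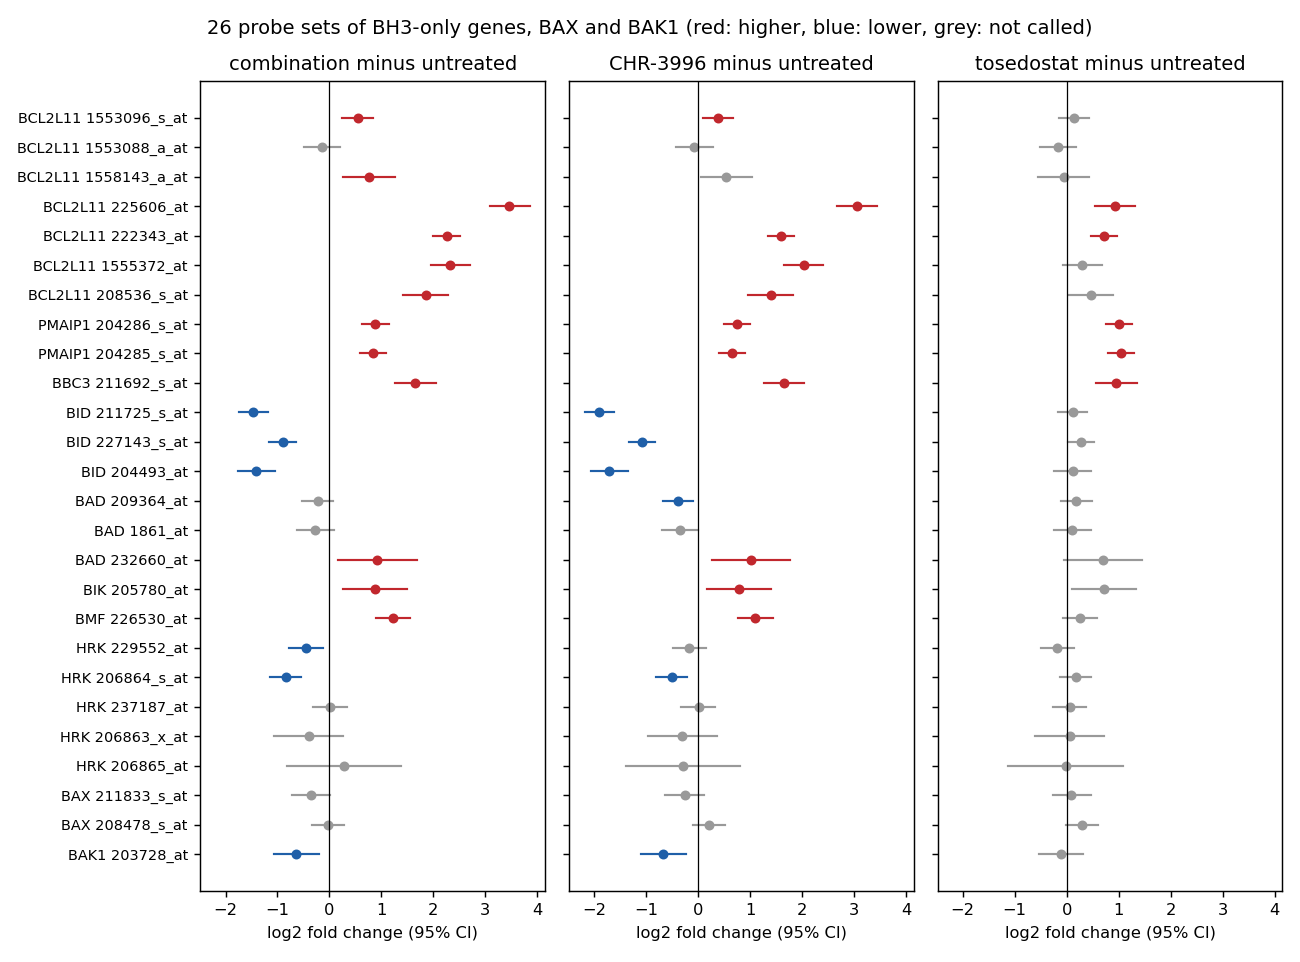
Log2 fold change against untreated cells (horizontal axis, with 95% confidence interval from limma) of each of the 26 probe sets, for the combination, CHR-3996 and tosedostat from left to right. Red marks higher calls, blue lower calls and grey no call. BCL2L11 225606_at lies farthest to the right in the CHR-3996 panel, at 3.06, and the 3 BID probe sets farthest to the left, between -1.90 and -1.07.

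BCL2L11 encodes BIM, which binds every major survival protein and can also activate BAX directly. It gave the largest increases of the set with the combination and with CHR-3996, but only by some of its 7 probe sets. On probe set 225606_at, combination arrays read 11.44, 10.97 and 10.98, CHR-3996 arrays 10.74, 10.59 and 10.85, tosedostat arrays 8.82, 8.63 and 8.35, and untreated arrays 7.63, 7.89 and 7.48. Every combination array was above every CHR-3996 array, these were above all tosedostat arrays, and untreated arrays were the lowest.
The log2 fold change was 3.06 ± 0.17 for CHR-3996 (8.34-fold, SE, adjusted p = 3.4e-07), 3.46 ± 0.17 for the combination (11.0-fold, adjusted p = 1.6e-07) and 0.93 ± 0.17 for tosedostat (1.91-fold, adjusted p = 0.0155, limma in each case). Under tosedostat this call was lost without tosedostat array 1 (adjusted p = 0.0661), tosedostat array 2 (0.0602), untreated array 1 (0.0608) or untreated array 3 (0.0678).

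A second probe set of BCL2L11, 222343_at, stepped through the groups with little spread. Its values were 8.56, 8.55 and 8.66 for the combination, 7.73, 7.94 and 8.12 for CHR-3996, 7.05, 7.02 and 7.08 for tosedostat and 6.27, 6.42 and 6.31 for untreated cells. No 2 groups overlapped. Log2 fold changes against untreated cells were 2.26 ± 0.11 for the combination (adjusted p = 1.6e-07), 1.60 ± 0.11 for CHR-3996 (adjusted p = 1.4e-06) and 0.71 ± 0.11 for tosedostat (adjusted p = 0.00771), and these 3 calls held in every fit.

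Probe set 1555372_at of BCL2L11 was also higher wherever CHR-3996 was given. On it the combination arrays read 7.64, 7.49 and 7.70 and the CHR-3996 arrays 7.43, 7.15 and 7.39, against 5.89, 5.24 and 5.62 for tosedostat and 5.45, 5.10 and 5.32 for untreated cells. The log2 fold change was 2.32 for the combination, 2.04 for CHR-3996 and 0.29 for tosedostat, the last not called (adjusted p = 0.448). Probe set 208536_s_at read 5.86, 5.64 and 5.92 with the combination and 5.53, 5.48 and 5.05 with CHR-3996, and lay below the 40th percentile on all 3 tosedostat arrays (4.45, 4.37 and 4.46) and all 3 untreated arrays (4.06, 3.52 and 4.28). It passed the filter only through the groups where it was high, so its calls add no support and its fold changes are not given.

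The remaining 3 BCL2L11 probe sets moved little. The brightest, 1553096_s_at, read 10.93 to 11.11 with the combination, 10.63 to 10.99 with CHR-3996, 10.53 to 10.75 with tosedostat and 10.36 to 10.64 in untreated cells. It was called higher with the combination (0.55 ± 0.13, adjusted p = 0.00552, but 0.30 and 0.0856 at equal medians) and with CHR-3996 (0.38 ± 0.13, adjusted p = 0.0349, but 0.16 and 0.342 at equal medians). The CHR-3996 call was also lost without CHR-3996 array 2 or 3 or untreated array 2 or 3 (adjusted p of 0.0953, 0.122, 0.0968 and 0.111).
Probe set 1558143_a_at was called higher with the combination (0.77 ± 0.22, adjusted p = 0.0156) and not with CHR-3996 (0.54 ± 0.22, adjusted p = 0.0728), and untreated array 3, at 9.81, stood above the other untreated arrays at 8.90 and 9.01. Without that array the CHR-3996 change was 0.82 (adjusted p = 0.00265), and without untreated array 1 or 2 the combination call was lost (adjusted p of 0.0665 and 0.0596), as it was with equal medians (0.0727). For 1553088_a_at the changes were -0.14 with the combination, -0.07 with CHR-3996 and -0.17 with tosedostat, none of them called. Where along the BCL2L11 transcripts each probe set lies was not analysed here, and the difference in response between probe sets was not tested.

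**Figure D2:**
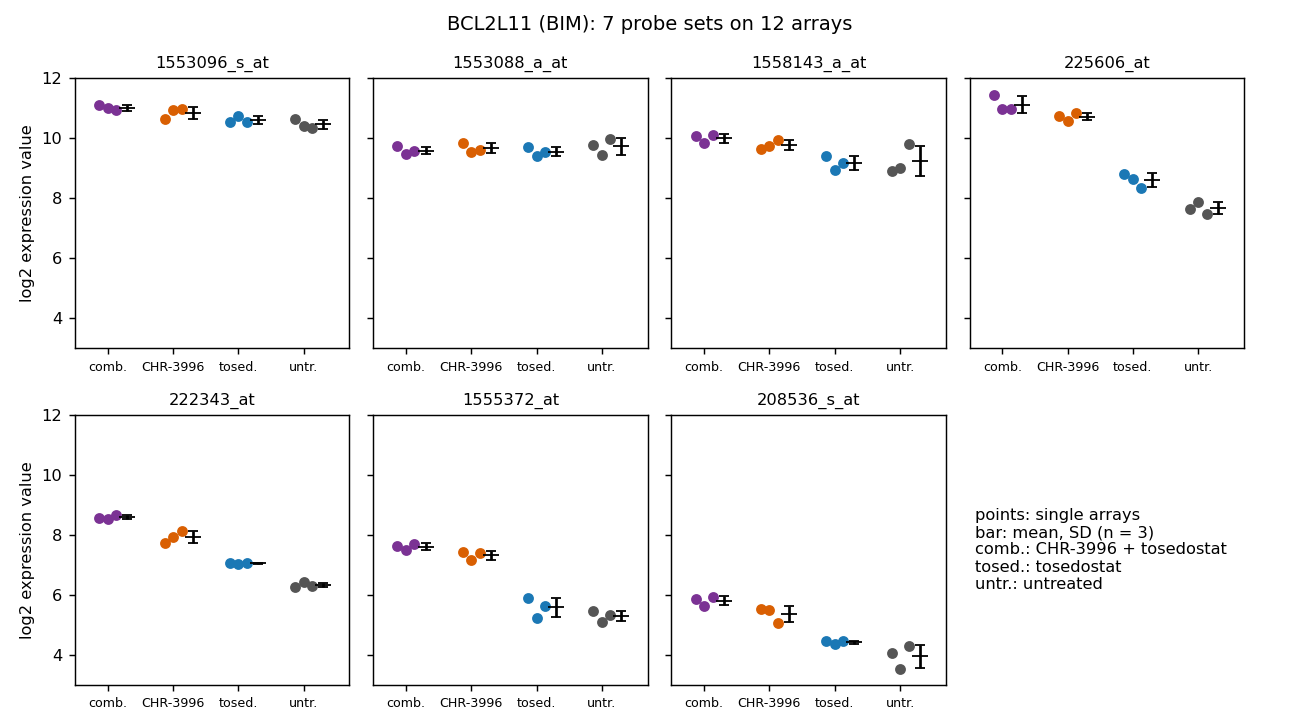
Log2 expression value (vertical axis, the same in all panels) of the 7 BCL2L11 probe sets on each of 12 arrays, with the mean and SD of each group (n = 3) beside the points. Combination, CHR-3996, tosedostat and untreated arrays run from left to right. The groups separate on 225606_at and 222343_at, and they overlap on 1553088_a_at.

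PMAIP1 encodes NOXA, which binds MCL1 and BFL1 and speeds the degradation of MCL1. Every treatment raised it, on both of its probe sets. On 204286_s_at the combination arrays read 9.63, 9.52 and 9.55, CHR-3996 arrays 9.32, 9.42 and 9.54, tosedostat arrays 9.73, 9.63 and 9.73, and untreated arrays 8.78, 8.48 and 8.80. All 9 treated arrays lay above all 3 untreated arrays, and the tosedostat mean was the highest of the 4.
The log2 fold change was 0.88 ± 0.12 with the combination (1.84-fold, adjusted p = 8.4e-05), 0.74 ± 0.12 with CHR-3996 (1.67-fold, adjusted p = 0.00031) and 1.01 ± 0.12 with tosedostat (2.01-fold, adjusted p = 0.00111). Probe set 204285_s_at read 9.03, 9.01 and 8.83 with the combination, 8.73, 8.83 and 8.77 with CHR-3996, 9.25, 9.16 and 9.05 with tosedostat and 8.28, 8.03 and 8.03 in untreated cells. Its log2 fold changes were 0.84, 0.66 and 1.04 for the combination, CHR-3996 and tosedostat. The 6 calls held in every fit.

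BBC3 encodes PUMA, a p53 target that binds every major survival protein. Its single probe set, 211692_s_at, is shared with MIR3190 and MIR3191, microRNA genes at the same locus. Combination arrays read 9.52, 9.28 and 9.27, CHR-3996 arrays 9.06, 9.54 and 9.46, tosedostat arrays 8.72, 8.47 and 8.78, and untreated arrays 8.02, 7.45 and 7.64. The combination and CHR-3996 arrays overlapped each other and lay above the tosedostat arrays, which lay above the untreated ones.
The log2 fold change was 1.65 ± 0.18 with the combination (3.15-fold, adjusted p = 2e-05), 1.65 ± 0.18 with CHR-3996 (3.14-fold, adjusted p = 2.1e-05) and 0.95 ± 0.18 with tosedostat (1.94-fold, adjusted p = 0.0152). The tosedostat call was lost without tosedostat array 1 (adjusted p = 0.0606), tosedostat array 3 (0.0584) or untreated array 3 (0.0619).

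BMF encodes a BH3-only protein that is held on the cytoskeleton by a dynein light chain. Its probe set, 226530_at, read 7.75, 7.90 and 7.70 with the combination, 7.37, 7.94 and 7.70 with CHR-3996, 6.69, 6.85 and 6.91 with tosedostat and 6.50, 6.72 and 6.48 in untreated cells. The arrays with CHR-3996, alone or combined, lay above all others, while tosedostat and untreated arrays overlapped. BMF rose with the combination (1.22 ± 0.15, 2.33-fold, adjusted p = 5.6e-05) and with CHR-3996 (1.10 ± 0.15, 2.15-fold, adjusted p = 0.00012), and the tosedostat change was 0.25 (adjusted p = 0.475).

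BIK acts at the endoplasmic reticulum. Probe set 205780_at read 8.64, 7.66 and 7.91 with the combination, 7.62, 8.44 and 7.88 with CHR-3996, 7.88, 8.03 and 7.81 with tosedostat and 7.06, 6.93 and 7.59 in untreated cells. All treated arrays were above the untreated ones, with a wide spread within groups. BIK was called higher with the combination (0.88 ± 0.28, adjusted p = 0.0238) and CHR-3996 (0.79 ± 0.28, adjusted p = 0.039), and the tosedostat change, 0.72 ± 0.28, was not called (adjusted p = 0.224).
Quantile normalization gave 0.44 in both comparisons (adjusted p of 0.228 for the combination and 0.231 for CHR-3996) and equal medians 0.63 and 0.57 (0.083 and 0.116). The combination call was lost without combination array 1 (adjusted p = 0.092) or untreated array 1 (0.0719) or 2 (0.0828), and the CHR-3996 call without CHR-3996 array 2 (0.148) or 3 (0.0641), tosedostat array 1 (0.051) or 3 (0.0501), or untreated array 1 (0.106) or 2 (0.126).

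BID links death receptors to the mitochondrion, since caspase-8 cuts it into an active fragment. It was the member with the largest decrease, on all 3 of its probe sets. On 211725_s_at the combination arrays read 8.27, 8.45 and 8.24 and the CHR-3996 arrays 7.76, 8.12 and 7.79, against 9.92, 9.91 and 9.88 with tosedostat and 9.88, 9.87 and 9.62 in untreated cells. Arrays with CHR-3996, alone or combined, lay below all arrays without it.
The log2 fold change was -1.47 ± 0.13 with the combination (2.77-fold lower, adjusted p = 4.6e-06), -1.90 ± 0.13 with CHR-3996 (3.73-fold lower, adjusted p = 1e-06) and 0.12 ± 0.13 with tosedostat (adjusted p = 0.742). Probe set 204493_at gave -1.41 and -1.71, and 227143_s_at -0.90 and -1.07, for the combination and CHR-3996. All 6 calls held in every fit, and none of the 3 probe sets was called under tosedostat.

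BAD is a BH3-only protein kept inactive by phosphorylation, and its 3 probe sets disagreed. On 209364_at the combination arrays read 8.22, 8.24 and 7.87, CHR-3996 arrays 7.89, 8.04 and 7.91, tosedostat arrays 8.50, 8.67 and 8.40, and untreated arrays 8.36, 8.45 and 8.20. CHR-3996 arrays lay below all untreated arrays, and combination arrays overlapped with both. This probe set was called lower with CHR-3996 (-0.39 ± 0.13, adjusted p = 0.0327), a call lost without CHR-3996 array 1 or 3 or untreated array 1 or 2 (adjusted p of 0.079, 0.0837, 0.0821 and 0.107), and not with the combination (-0.22, adjusted p = 0.196).
On 1861_at the changes were -0.27 with the combination and -0.35 with CHR-3996 (adjusted p of 0.201 and 0.0958). With equal medians, 209364_at (-0.47, adjusted p = 0.0161) and 1861_at (-0.51, adjusted p = 0.0232) were both called lower with the combination, and 1861_at with CHR-3996 as well (-0.57, adjusted p = 0.0137). Quantile normalization gave -0.70 for 1861_at in both comparisons (adjusted p of 0.00077 for the combination and 0.0007 for CHR-3996). Probe set 232660_at went the other way, with changes of 0.92 for the combination (adjusted p = 0.047) and 1.02 for CHR-3996 (adjusted p = 0.0315). Its untreated arrays read 5.47, 3.88 and 4.47, and without array 2 the changes were 0.56 (adjusted p = 0.178) and 0.65 (adjusted p = 0.12). Leaving out any of 9 other arrays (all but combination array 3 and untreated array 1) also ended the combination call, and any of 4 others (the 3 CHR-3996 arrays and untreated array 3) the CHR-3996 call. Equal medians ended both calls too (0.67, adjusted p = 0.121, for the combination and 0.80, adjusted p = 0.0725, for CHR-3996).

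HRK, a BH3-only protein with a preference for BCL-XL, was read by 5 probe sets. On 206864_s_at the combination arrays read 5.58, 5.35 and 5.53, CHR-3996 arrays 5.67, 5.73 and 6.05, tosedostat arrays 6.54, 6.35 and 6.61, and untreated arrays 6.47, 6.29 and 6.22. The combination arrays were the lowest and did not overlap with the CHR-3996 arrays, which lay below tosedostat and untreated arrays. HRK fell on this probe set with the combination (-0.84 ± 0.14, adjusted p = 0.00039) and with CHR-3996 (-0.51 ± 0.14, adjusted p = 0.00963).
The brightest HRK probe set, 229552_at, was called lower with the combination (-0.45 ± 0.15, adjusted p = 0.0272), a call lost without combination array 2 or 3 or any untreated array (adjusted p between 0.053 and 0.0802), and its change with CHR-3996 was -0.17 (adjusted p = 0.402, but -0.55 and 0.00925 after quantile normalization). The other 3, 237187_at, 206863_x_at and 206865_at, were called in no comparison, and their changes with the combination were 0.01, -0.40 and 0.28.

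BAX and BAK1 encode the pore-forming effectors. BAX did not pass the test against untreated cells on either probe set. On 211833_s_at the combination arrays read 7.65, 7.93 and 7.96, CHR-3996 arrays 7.59, 8.24 and 8.02, tosedostat arrays 8.20, 8.24 and 8.47, and untreated arrays 8.12, 8.21 and 8.30, so that combination arrays lay below untreated ones and CHR-3996 arrays overlapped with them. The changes were -0.36 for the combination, -0.26 for CHR-3996 and 0.09 for tosedostat (adjusted p of 0.101, 0.24 and 0.857).
At equal medians the first 2 were called, at -0.61 (adjusted p = 0.00844) and -0.48 (adjusted p = 0.0282), and the combination change was also called without CHR-3996 array 1 (adjusted p = 0.0403). On 208478_s_at the changes were -0.03 for the combination, 0.21 for CHR-3996 and 0.29 for tosedostat, none called, although quantile normalization gave -0.48 for the combination (adjusted p = 0.00578).

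BAK1 was lower on its single probe set, 203728_at. Combination arrays read 9.13, 9.27 and 9.03, CHR-3996 arrays 8.65, 9.52 and 9.18, tosedostat arrays 9.59, 9.82 and 9.63, and untreated arrays 9.62, 9.84 and 9.88. Arrays with CHR-3996, alone or combined, lay below all others, with the CHR-3996 arrays spread widest. BAK1 changed by -0.64 ± 0.19 with the combination (1.56-fold lower, adjusted p = 0.0182), by -0.67 ± 0.19 with CHR-3996 (1.59-fold lower, adjusted p = 0.015) and by -0.10 ± 0.19 with tosedostat (adjusted p = 0.869). The combination call was lost without combination array 3 (adjusted p = 0.0593) or untreated array 2 (0.0524) or 3 (0.0581), and the CHR-3996 call when the fit held the arrays of the 2 groups alone (0.0539).

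**Figure D3:**
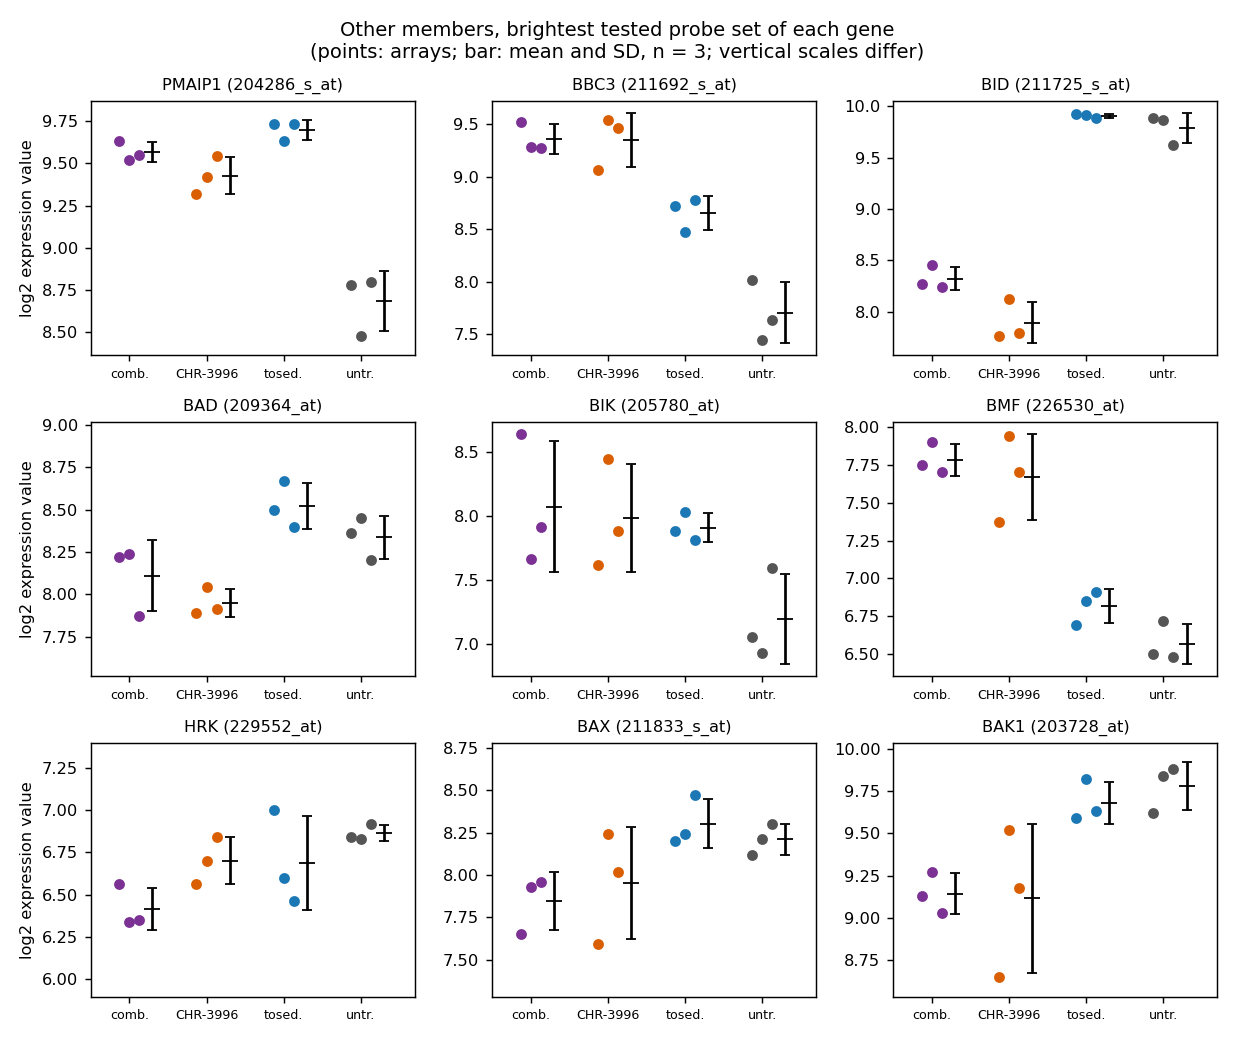
Log2 expression value (vertical axis, scaled to each gene) of the brightest probe set of the other 9 genes on each of 12 arrays, with group mean and SD (n = 3). Combination, CHR-3996, tosedostat and untreated arrays run from left to right. PMAIP1 is higher in all 3 treated groups, BBC3 and BMF are highest where CHR-3996 was given, and BID is lowest there.

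Whether the combination differed from CHR-3996 alone was asked next. No member probe set was called (0 of 26), beside 0.0632% of all probe sets, or 23 of 36395. In limma 5 member probe sets had an unadjusted p under 0.05, 4 of them higher, beside 10.6% of all probe sets under that threshold. The 4 include BCL2L11 208536_s_at, which adds no support because of how it passed the filter. BCL2L11 came closest: 222343_at differed by 0.66 ± 0.11 (95% interval 0.41 to 0.91), but its adjusted p was 0.123, and it passed with a filter at the 60th percentile (0.0407) or with a variance trend and robust estimation (0.0444). On 225606_at the difference was 0.40 (interval 0.02 to 0.79, adjusted p = 0.453). For PMAIP1 on 204286_s_at it was 0.14 (interval -0.11 to 0.40), for BBC3 0.00 (-0.39 to 0.40) and for BMF 0.12 (-0.22 to 0.45). BID differed by 0.43 on 211725_s_at (interval 0.14 to 0.71, adjusted p = 0.295), and HRK by -0.33 on 206864_s_at (interval -0.63 to -0.03, adjusted p = 0.43).

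Against tosedostat alone, the combination raised 8 member probe sets and lowered 7, beside 42.1% of all probe sets (28.4% higher and 13.7% lower). Equal medians gave 7 higher and 12 lower, and quantile normalization 8 and 11. The 8 higher calls of the main fit include BCL2L11 208536_s_at, whose call adds no support. With that probe set counted, BCL2L11 was higher on 6 of 7 probe sets, with 2.53 ± 0.17 on 225606_at (5.78-fold, adjusted p = 1.7e-06) and 1.54 ± 0.11 on 222343_at (adjusted p = 2.7e-06). The call of its brightest probe set, 1553096_s_at (0.40, adjusted p = 0.029), was lost with equal medians (0.17, adjusted p = 0.332), with no filter (0.0584) and without combination array 1 or 2 or tosedostat array 1 or 3 (adjusted p of 0.0898, 0.0609, 0.0932 and 0.0847). BMF differed by 0.97 ± 0.15 (adjusted p = 0.00037) and BBC3 by 0.70 ± 0.18 (adjusted p = 0.00837).
BID was lower on 3 of 3 probe sets, with a difference of -1.59 ± 0.13 on 211725_s_at (adjusted p = 4.5e-06), and HRK was lower on 206864_s_at, with a difference of -1.01 ± 0.14 (adjusted p = 0.00013). PMAIP1 was not called, at -0.13 and -0.20 on its 2 probe sets (adjusted p of 0.413 and 0.196), but was called lower with equal medians (-0.36, adjusted p = 0.0199, on 204286_s_at and -0.43, adjusted p = 0.00961, on 204285_s_at).
Lower calls also fell on BAD 209364_at (-0.41, adjusted p = 0.0278), BAX 211833_s_at (-0.46, adjusted p = 0.0472) and BAK1 (-0.54, adjusted p = 0.0436). The BAD call was lost without combination array 3 (-0.29, adjusted p = 0.113) or tosedostat array 1 (adjusted p = 0.0592) or 2 (0.103). The BAX and BAK1 calls were each lost without any of 10 single arrays, all but CHR-3996 arrays 1 and 2, with adjusted p of at most 0.157 and 0.127. Same-numbered arrays of these 2 groups deviated together, and with the replicate number as a block BAD 1861_at (-0.38, adjusted p = 0.0109 with the block and 0.0818 without) and BAX 208478_s_at (-0.32, adjusted p = 0.0343 with the block and 0.0909 without) were called lower too. At equal medians, without the block, lower calls also fell on BAD 1861_at (-0.61, adjusted p = 0.0107), BAX 208478_s_at (-0.56, adjusted p = 0.0069) and HRK 229552_at (-0.51, adjusted p = 0.0165).

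The interaction asked whether the log2 changes of the 2 compounds add up, and it is the combined change minus the sum of the single ones. No member probe set was called (0 of 26), beside 0.206% of all probe sets. In limma 5 member probe sets had an unadjusted p under 0.05, all 5 below the sum, beside 10.2% of all probe sets under that threshold. PMAIP1 came closest to a call, with an adjusted p of 0.0727 on each of its probe sets. On 204286_s_at the combined change was 0.88 against a sum of 1.75, an interaction of -0.87 ± 0.16 (95% interval -1.23 to -0.51). On 204285_s_at the combined change was 0.84 against a sum of 1.70 (-0.86 ± 0.16). BBC3 had a combined change of 1.65 and a sum of 2.60 (-0.95 ± 0.25, adjusted p = 0.202). On BCL2L11, 222343_at had a combined change of 2.26 and a sum of 2.31 (-0.05 ± 0.16, interval -0.41 to 0.30), 1555372_at 2.32 and 2.33, and 225606_at 3.46 and 3.99 (-0.53 ± 0.25, adjusted p = 0.504).

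**Figure D4:**
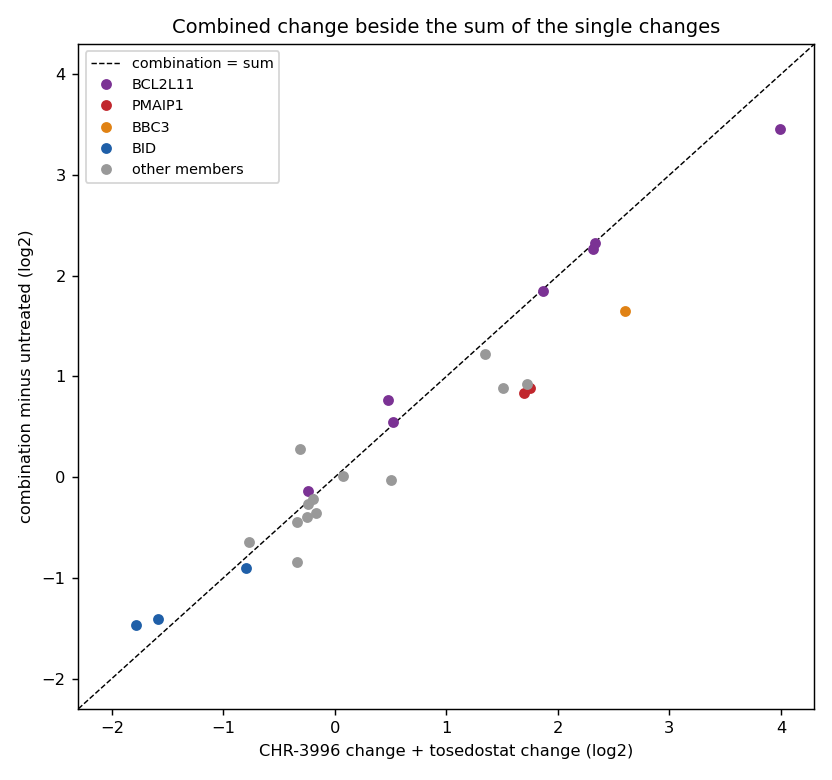
Log2 change of the combination against untreated cells (vertical axis) beside the sum of the CHR-3996 and tosedostat changes (horizontal axis, log2) for each of the 26 probe sets, with a dashed line where they are equal. Both axes use the same untreated arrays. BCL2L11 222343_at lies near the line at 2.31 and 2.26, and PMAIP1 and BBC3 lie below it.

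Genes that work with these proteins were read from listed genes by the brightest probe set of each. Among the 6 survival proteins, 2 were higher and 1 lower with the combination, 2 and 1 with CHR-3996, and 3 and 0 with tosedostat, beside 50.5%, 49.7% and 4.8% of 15588 genes called in those comparisons. BCL2 led each comparison, with changes of 2.00 ± 0.20 with the combination, 1.88 ± 0.20 with CHR-3996 and 0.96 ± 0.20 with tosedostat (adjusted p of 1.2e-05, 1.9e-05 and 0.0259). BCL2A1, which encodes BFL1, was lower with the combination (-1.09 ± 0.22) and CHR-3996 (-1.01 ± 0.22). MCL1 was higher in the same 3 comparisons (0.49 ± 0.10, 0.50 ± 0.10 and 0.56 ± 0.10, adjusted p of 0.00238, 0.00195 and 0.014). The list had a median of -0.04 with the combination, 0.06 with CHR-3996 and 0.40 with tosedostat, beside 0.15, 0.11 and 0.04 over all genes.

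Of 12 transcription factors known to act on BH3-only genes, 11 were tested, and 6 were higher and 3 lower both with the combination and with CHR-3996, whereas 2 were higher with tosedostat. The shares of all genes called were 50.5% with the combination, 49.7% with CHR-3996 and 4.8% with tosedostat. ATF3, a stress factor, changed by 3.71 ± 0.16 with the combination, 3.87 ± 0.16 with CHR-3996 and 1.52 ± 0.16 with tosedostat. DDIT3, which encodes CHOP, changed by 3.39 ± 0.18, 3.73 ± 0.18 and 2.02 ± 0.18 in the same order. E2F1, a cell cycle factor, was lower with the combination (-2.24 ± 0.20) and with CHR-3996 (-2.75 ± 0.20). DDIT3 (-2.36 ± 0.25, adjusted p = 0.00538) and ATF3 (-1.67 ± 0.23, adjusted p = 0.0203) were the 2 genes of this list with a called interaction, beside 0.276% of all genes. The median of the list was 0.52 with the combination, 0.54 with CHR-3996 and 0.47 with tosedostat, beside 0.15, 0.11 and 0.04 over all genes.

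For the lists that follow, 50.5% of all genes were called with the combination, 49.7% with CHR-3996 and 4.8% with tosedostat. The medians over all genes were 0.15, 0.11 and 0.04 in the same order. Among 8 other proteins with a BH3 motif or an effector-like fold, BNIP3L, a mitophagy receptor, was higher with the combination (2.07 ± 0.13) and CHR-3996 (2.08 ± 0.13), BECN1 passed with the combination (0.41 ± 0.11), and 0 passed with tosedostat (list medians 0.00, -0.12 and 0.08). Of 10 tested genes of the apoptosome and the released mitochondrial factors, 4 were higher and 2 lower with the combination, 2 and 3 with CHR-3996, and 0 passed with tosedostat (medians 0.22, 0.11 and 0.01). APAF1, the scaffold of the apoptosome, changed by 2.15 ± 0.16 and 2.10 ± 0.16, and ENDOG, a mitochondrial nuclease, by -0.99 ± 0.16 and -0.97 ± 0.16, with the combination and CHR-3996. Another list was drawn up for control of the stability or activity of BH3-only proteins, though not all its genes act on these. Of its 11 tested genes, 6 were higher with the combination, 5 with CHR-3996 and 1 with tosedostat. In these comparisons 0 were lower (medians 0.40, 0.26 and 0.16). USP9X, a deubiquitinase that acts on the survival protein MCL1, led with the combination (1.16 ± 0.13) and CHR-3996 (1.07 ± 0.13). PIM1, a kinase that phosphorylates BAD, was the one with tosedostat (0.61 ± 0.14, adjusted p = 0.0365).

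Likeness in pattern was measured as the root mean square difference in the 3 mean log2 changes against untreated cells, over 15588 genes. Closest to PMAIP1 were LRRN1 (0.04), STX4 (0.07) and ATOX1 (0.07), and LRRN1 changed by 0.86 with the combination, 0.76 with CHR-3996 and 0.95 with tosedostat. AOAH (0.06), MVP (0.09) and LINC01138 (0.10) were closest to BBC3. For the brightest BCL2L11 probe set, whose changes were small, LAMTOR3, WASF2 and SWSAP1 were each within 0.01.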

How the data were processed

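RNA from H929 cells was amplified in a 2-cycle reaction, labelled with biotin and hybridized to Affymetrix U133 Plus 2.0 arrays, 1 per sample, 12 in all. The authors normalized the arrays in dChip and deposited log2 values for 54675 probe sets. No source used here states the dChip version or settings, and the values themselves show the log2 scale. Between 1141 and 1344 values on an array are exactly 0. No further normalization was applied.

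After removal of 62 control probe sets, 36395 of 54613 passed a filter that asked for a value over an array's 40th percentile in 3 or more of the 12 arrays. limma 3.58.1 (lmFit, contrasts.fit, eBayes) in R 4.3.3 was fitted with 1 term per group, 8 residual degrees of freedom and 6 contrasts. Adjustment followed Benjamini and Hochberg over all probe sets tested in a contrast, with a threshold of 0.05. The fit was run on simulated data with errors independent between arrays. That run could not test the effect of the shared deviations of same-numbered arrays, described below. Genes were named from the platform annotation, with the brightest tested probe set as representative (15588 genes). The members, lists and the rule for named genes (all members, the called gene of each list with the highest and lowest change, and the 3 genes nearest to BCL2L11, PMAIP1 and BBC3) were chosen with earlier results of these data known. MCL1, DDIT3 and BECN1 were named after their values were seen. Some listed genes were not analysed here.

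Alternatives were quantile normalization, equal medians, dropping the filter, raising it to the 60th percentile (21 of the 26 probe sets tested), a variance trend with robust estimation, the compared groups alone, the replicate number as a block, a rule that also required a 2-fold change and a linear difference of 100, other probe sets of a gene, and leaving out each array. Groups share replicate numbers in the titles, and what a number marks is not stated. Taken as deviations from the group mean, arrays of the same number correlated positively in every pair of groups (0.0358 to 0.288). The lowest was 0.179 for the combination with either compound, 0.116 for CHR-3996 with tosedostat and 0.126 for tosedostat with untreated cells. It was 0.0358 for CHR-3996 with untreated cells and 0.0981 for the combination with untreated cells. The main fit used no block. Figures used matplotlib 3.10.9 (Python 3.11.15).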

Additional observations from a re-analysis of the deposited data

How the results depend on the processing

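The counts of called member probe sets, 17 for CHR-3996, 5 for tosedostat and 18 for the combination against untreated cells, 15 for the combination against tosedostat, and 0 both against CHR-3996 and for the interaction, stayed within 1.5 times under most alternatives. Requiring a 2-fold change and a linear difference of 100 as well, which can only remove calls, left 8, 2, 7 and 6 in the 4 comparisons that had calls. With the arrays of the compared groups alone, tosedostat kept 3 of its 5. Against CHR-3996, 1 probe set of BCL2L11 was called with a filter at the 60th percentile and 1 with a variance trend and robust estimation. The interaction of PMAIP1 was called on 2 probe sets under each of these (adjusted p of 0.0263 and 0.0163 on 204286_s_at) and with the replicate block (0.0461), and the cause was not tested. Leaving out 1 array at a time gave 13 to 17 calls for CHR-3996, 3 to 5 for tosedostat, 13 to 18 for the combination, 11 to 15 for the combination against tosedostat, and 0 for the other 2.

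With the replicate block the counts were 18, 5, 20 and 17 in the 4 comparisons with calls, 0 for the combination against CHR-3996 and 2 for the interaction. Among brightest probe sets it ended the call of BIK with CHR-3996 (adjusted p = 0.0628), added that of BAX with the combination (-0.36, adjusted p = 0.038) and changed no other but the PMAIP1 interaction. Among the other probe sets it added calls for BAD 1861_at with CHR-3996 (adjusted p = 0.0136) and the combination (0.045) and for BCL2L11 1558143_a_at with CHR-3996 (0.0435). Some changes that were not called, such as that of BIK between the combination and tosedostat, changed sign with the scaling or the array left out. Called directions of the brightest probe sets turned in other probe sets of the gene. BCL2L11 1553088_a_at gave -0.07 with CHR-3996 and -0.14 with the combination. BAD 232660_at gave 1.02 with CHR-3996 and 0.22 for the combination against tosedostat. HRK 206865_at gave 0.28 and 237187_at 0.01 with the combination. With the combination BAD 232660_at was called at 0.92, while the brightest BAD probe set went the other way without a call (-0.22). For the brightest probe set of each gene with 1 array left out, 664 results kept their call or lack of one, 55 lost the call and 1 gained it. The dimmest members, BAD 232660_at, BCL2L11 208536_s_at and 3 HRK probe sets, did not pass the filter at the 60th percentile.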
